A study of Drosophila melanogaster with 24 samples.

Results

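The sites described here are the 1975 places on the Drosophila melanogaster genome where CYCLE (CYC) was called as bound in ovary, all of the peaks in 1 of the 6 deposited lists, which hold 7810 peaks together. Chromatin immunoprecipitation and sequencing (ChIP-seq) of CYC and of its partner CLOCK (CLK) was done in head, testis and ovary with an antibody against GFP, from 24 libraries in 12 groups. The ovary list of CYC came from 2 GFP libraries and 2 input libraries, each replicate made from 200 pairs of ovaries collected at ZT 10 h. The labels used here name neither the fly strain, the tagged allele and what drives it nor the age of the flies, and they name no library from flies that lack the tag. The other groups used below are CYC in testis (1583 peaks), CLK in ovary (351 peaks) and CYC in head (394 peaks), each also with 2 GFP and 2 input libraries collected at the same hour, and testes come from males. The lists give the position of each peak and no height or score, and each was deposited once per protein and tissue, so a peak cannot be compared between replicates. Positions carry no expression values, so the tissue label was not checked against marker genes.

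CYC and CLK are bHLH-PAS transcription factors that pair to bind E-box motifs and switch on period and timeless, whose products then block the pair and so close the daily feedback loop of the fly clock. The ovary is built of germline cysts and somatic follicle cells; the follicle cells surround each egg chamber and lay down the eggshell. Its cells carry out germline stem cell division, endoreplication, yolk uptake and chorion gene amplification.

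Of the 1975 peaks, 1936 lay on X, 2L, 2R, 3L, 3R and 4, and the rest on Y (16 peaks), the mitochondrial genome (2) and unplaced contigs (21). A midpoint inside a gene or within 1 kb of an end was found for 1551 of 13922 protein-coding genes (11.1%), and within 1 kb of an end for 1071 (7.69%). Of the 1551 genes, 1199 held 1 peak, 352 held 2 or more and 19 held 5 or more. With genes split by length into 4 classes of like size, those of the longest class (5000 bp or more) had a site in 22.1% of cases, against 6.09 to 9.11% in the other classes. For this reason most groups of genes below are set beside the share of coding genes with the same mix of these length classes, called like length, besides the 11.1% of all coding genes. The longest class is broad, and of its 307 genes of 50 kb or longer 127 had a site (41.4%). Like length thus does not fully match lists of long genes. Median lengths were 44.5 kb for axon guidance, 36.6 kb for neuronal, 36.2 kb for immunoglobulin recognition and 31.7 kb for hormone genes. The shortest class (168 to 1178 bp) had a site at 317 of 3481 genes. These include the 111 genes of the histone cluster. They raise the share at like length for lists of short genes, and no share without them was calculated. All positions are on dm6 and are printed as deposited.

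Among the genes of the clock, 6 of 16 had a site (37.5%, against 19.3% of coding genes of like length), and 5 of the 6 had sites only inside the gene, over 1 kb from its ends. The one CYC site at per, the repressor gene of the loop, lay 1.64 kb inside it (X 2687053 to 2687378, 325 bp) and met peaks of both CYC and CLK of head. None of the other 8 sites at clock genes met a peak of any other list. The gene of CLK itself, Clk, held a peak of 253 bp (3L 7773180 to 7773433), 2.3 kb from an end. Pdp1, which encodes a bZIP activator of Clk, held one of 442 bp (3L 7857098 to 7857540), 10.1 kb from an end. The kinase gene sgg held 4 peaks, of 200 to 415 bp, and 1 of them lay 0.349 kb from an end. Both subunit genes of casein kinase 2, which phosphorylates PER, held 1 peak each, CkIIalpha at 3L 23099967 to 23100284 and CkIIbeta at X 11794647 to 11794857. With sites within 1 kb of an end alone, the count for the list was 1 of 16.

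Genes of the eggshell and yolk had a site in 6 of 25 cases (24%, against 10.6% at like length). Of these 6, 4 stand in 1 chorion gene cluster on X, where Cp7Fa and Cp7Fb share a peak. Of the same 25 genes, 1 had a CYC testis site, against 10.1% of all coding genes, and none had a CLK ovary or a CYC head site, against 1.73 and 4.13%. CLK of testis had sites at 3 of them, against 17.8%, and CLK of head at none, against 9.07%. The chorion protein gene Cp36 stood beside the widest of these peaks (X 8480372 to 8481143, 771 bp), 0.234 kb from its end, and 3 further chorion genes of that cluster, Cp7Fa, Cp7Fb and Cp7Fc, had peaks of 199 to 233 bp. This amplified cluster on X forms a group with CG33223, CG12116 and the oogenesis gene otu, with 8 peaks over 19.2 kb (X 8465575 to 8484817), and no other list had a peak there. The other amplified chorion cluster, on 3L, held no CYC ovary peak over its 4 genes, which end at 8732599. Beside them Prm, which begins at 8732858, held 6 peaks (3L 8736692 to 8746102). Both clusters were looked up after the groups of peaks were seen. The yolk protein gene Yp3 had a peak 0.489 kb from an end (X 13758909 to 13759205), and the vitelline membrane gene psd one 0.958 kb away (2L 5962007 to 5962252). With a window of 3 kb the list counted 11 members, and among the widest 50% of peaks it counted 1.

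Genes that pass on the steroid and juvenile hormone signals of oogenesis had a site in 8 of 23 cases (34.8%, against 19.6% at like length). Every one of these sites had its midpoint inside the gene. Eip75B, an ecdysone-induced nuclear receptor gene, held 3 peaks, and the widest spanned 2369 bp (3L 18054326 to 18056695). ftz-f1, another nuclear receptor gene, held 2, at 0.198 and 0.776 kb from an end (3L 18750652 to 18750959 and 18751254 to 18751512). Single peaks of 199 to 369 bp lay in br and Eip74EF, early ecdysone response genes, in tai, a coactivator gene, in gce, a juvenile hormone receptor gene, in the nuclear receptor gene Hr39 and in Oatp74D, the ecdysone importer gene. Within 1 kb of an end alone, 2 of the 23 genes were counted.

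In the signalling pathways the counts were small. JAK-STAT, which acts in the germline niche and in follicle cells, had 4 of 10 members with a site (40%, against 17.7% at like length). These were the JAK kinase gene hop (X 11360321 to 11360535, 0.502 kb outside the gene) and 3 negative regulators, Socs36E (2L 18138706 to 18138984, 0.17 kb from an end), the phosphatase gene Ptp61F and the short receptor gene et. All 4 peaks were narrow, from 206 to 278 bp, and none was among the widest 50% of the list. With sites within 1 kb of an end alone 2 of the 10 were counted, and by the gene with the nearest end 1 was. The EGF receptor and Ras list had 5 of 20 members (25%, against 19.9%), with Egfr itself, its secreted inhibitor gene aos, the scaffold gene ksr, the phosphatase gene csw and the ETS factor gene pnt. Notch had 4 of 16 (25%, against 15.9%), with the protease gene kuz, the ligase gene neur, the coactivator gene mam and E(spl)m7-HLH, a target. Wnt had 5 of 21 (23.8%, against 17.3%), with the receptor genes fz, fz2 and arr and the destruction complex genes Apc and Axn. Near an end alone, each of these 3 lists counted 2. In BMP signalling 1 of 20 members, the receptor gene tkv, had a site, Hedgehog had 2 of 14, insulin and TOR 2 of 21 and Hippo 1 of 14. These last 4 lists lay below the share at like length, with 5% against 16.1% for BMP, 14.3% against 15.7% for Hedgehog, 9.52% against 14.4% for insulin and TOR and 7.14% against 14.5% for Hippo.

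The germline lists were close to or below the share of like genes, apart from the stem cell list at 6 of 25 (24%, against 17.8%), which counted 3 near an end alone and 2 by the nearest end. In that list otu, Socs36E and hop had sites within 1 kb of an end, and Sxl, the sex determination switch, hts, an adducin gene of the fusome, and tkv had theirs deep inside. Patterning and RNA localisation genes counted 3 of 24 (12.5%, against 15.4%), with the actin nucleator gene spir and the genes BicD and BicC. Meiosis genes counted 2 of 21 (9.52%, against 9.74%), with a peak of 1092 bp beside png (X 1357940 to 1359032), a kinase gene of egg activation, that met a CYC testis peak. In the piRNA pathway 1 of 25 had a site (4%, against 12.4%), AGO3, and in the cell cycle list 3 of 27 (11.1%, against 10.9%), E2f1 and its partner gene Dp and the kinase gene polo. Cell polarity and ring canal genes counted 8 of 26 (30.8%, against 19.2%). They included the apical genes baz and sdt, the basolateral genes dlg1 and l(2)gl, the filamin gene cher and the ring canal gene kel. The site of kel is the peak inside Socs36E given above, and its midpoint lay 0.762 kb outside kel. At baz the peak (X 17199398 to 17200135, 737 bp, 0.962 kb from an end) met both a CLK ovary and a CYC testis peak. By the nearest end, or within 1 kb of an end, 3 of these 26 were counted.

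Among lists of other tissues, neuronal genes had sites in 11 of 31 cases (35.5%, against 21.2%) and axon guidance genes in 11 of 34 (32.4%, against 22.1%). Near an end alone each list counted 5, and by the nearest end axon guidance counted 5. Syt1, the calcium sensor gene of vesicle release, held a peak of 3085 bp (2L 2773717 to 2776802), and the adenylyl cyclase gene rut one of 2593 bp (X 14819401 to 14821994). The adhesion gene hbs held a peak of 5981 bp (2R 15015604 to 15021585) and the semaphorin gene Sema1a one of 3198 bp (2L 8596557 to 8599755). Muscle genes counted 6 of 29 (20.7%, against 16.4%), or 3 near an end alone, and Prm, the paramyosin gene, held 6 peaks of its own over 9.41 kb. Mucin genes, which encode secreted glycoproteins, had a site in 7 of 13 cases (53.8%, against 15.1%), or 4 near an end alone, and of these Muc68E held 4 peaks and Muc30E and Muc68Ca 3 each. Of the same 13, 8 had a CYC testis site, against 10.1% of all coding genes, and 4 a CLK ovary site, against 1.73%. CLK of testis had sites at 3 of them, against 17.8%. Neither head list had a site at any, against 4.13% for CYC and 9.07% for CLK. Of the 14 peaks at mucin genes, 10 met a CYC testis peak.

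Gene families that stand in tandem gave a mixed picture. Genes of the E(spl) complex and Bearded family, small targets of Notch, counted 4 of 15 (26.7%, against 8.7% at like length), with Tom and Ocho, both on 3L (peaks at 14970150 to 14970375 and 14974396 to 14974641), and E(spl)m2-BFM and E(spl)m7-HLH on 3R. Digestive serine proteases of the Jonah and trypsin families counted 6 of 31 (19.4%, against 8.81%), all with the site outside the gene, and the widest was the peak of 901 bp beside Ser6 that met CLK of ovary (X 20961217 to 20962118). Glycosyltransferase genes of the Ugt family counted 6 of 35 (17.1%, against 6.91%), none of them by a peak of the widest 50%. In this family 1 peak of 261 bp at the end of Ugt303B3, 0.256 kb from its neighbour Ugt303B1 (3R 23534514 to 23534775), met both CYC and CLK of testis. Ionotropic receptor genes counted 9 of 66 (13.6%, against 7.29%), among them Ir93a, a gene of temperature and humidity sensing, with 3 peaks. Pairs of neighbours shared 1 peak each at Ir94b and Ir94c, at Ir75a and Ir75b and at Ir7f and Ir7g, so these 9 genes rest on fewer sites. Cyp309a2 held 3 peaks of 557 to 1319 bp, the widest among the cytochrome P450 genes.

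Chaperone genes counted 5 of 26 (19.2%, against 9% at like length), with peaks at 1 copy of each Hsp70 cluster, Hsp70Ab (3R 11957393 to 11957711) and Hsp70Bb (3R 12505779 to 12506168), and at Hsp60D, Hsp27 and the cochaperone gene stv. The Hsp70 copies are nearly identical, as in the arrays below. Homeotic and segmentation genes counted 4 of 28 (14.3%, against 14.5%), with Antp, Ubx, hth and inv, of which inv held 2 peaks. Polycomb and trithorax genes counted 2 of 23 (8.7%, against 16.8%), Pc and the remodeller gene brm. Proteasome genes counted 5 of 48 (10.4%, against 7%), and among them the catalytic subunit paralogue Prosbeta5R2 had a peak that met CLK of ovary (2L 17989587 to 17989863). Genes of the respiratory chain and ATP synthase counted 6 of 93 (6.45%, against 8.85%) and cuticle genes 8 of 124 (6.45%, against 9.13%). The genes of both lists are mostly short, so the histone genes raise both shares at like length. At Cpr73D and Obp73a, which overlap on 3L, the same 4 peaks of 425 to 1944 bp counted for both. Immunoglobulin recognition genes counted 8 of 54 (14.8%, against 21%), and dpr3 held a peak of 2041 bp (2L 2106441 to 2108482). Glutathione transferase genes counted 4 of 35 (11.4%, against 8.4%) and tetraspanin genes 3 of 34 (8.82%, against 9.41%). The 4 glutathione transferase genes rest on shared peaks, 1 for GstZ1 and GstZ2 and 1 for GstE4 and GstE5. Odorant-binding protein genes counted 5 of 51 (9.8%, against 8.84%) and Osiris genes 1 of 25 (4%, against 8.01%).

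At the other end, none of 93 cytoplasmic and none of 73 mitochondrial ribosomal protein genes had a site inside or within 1 kb, against 7.47 and 8.78% at like length. Gustatory receptor genes counted 1 of 60 (1.67%, against 7.07%) and odorant receptor genes 2 of 61 (3.28%, against 6.55%). For tRNA genes the count was 6 of 295 (2.03%, against 9.11%) and for microRNA genes 10 of 260 (3.85%, against 9.11%). Spermatogenesis genes counted 1 of 29 (3.45%, against 8.19%), the RNA-binding gene bol, with 3 peaks. Photoreceptor genes counted 1 of 18 (5.56%, against 13.6%) and immune peptide and recognition genes 2 of 55 (3.64%, against 9.28%). Cytochrome P450 genes, at 10 of 87 (11.5%, against 7.34%), were close to the share of all coding genes. Across the 50 lists, 25 lay above 11.1% and 25 at or below it, and 26 lay above the share at like length. The histone genes are part of both of these shares. A peak can count for neighbouring or overlapping genes at once, as 1 peak did for Ugt37C2 and Ugt37E1. Single peaks likewise counted for both ChAT and VAChT of the neuronal list, and for both BicC and beat-Ic. The lists had no test of their own.

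**Figure D1:**
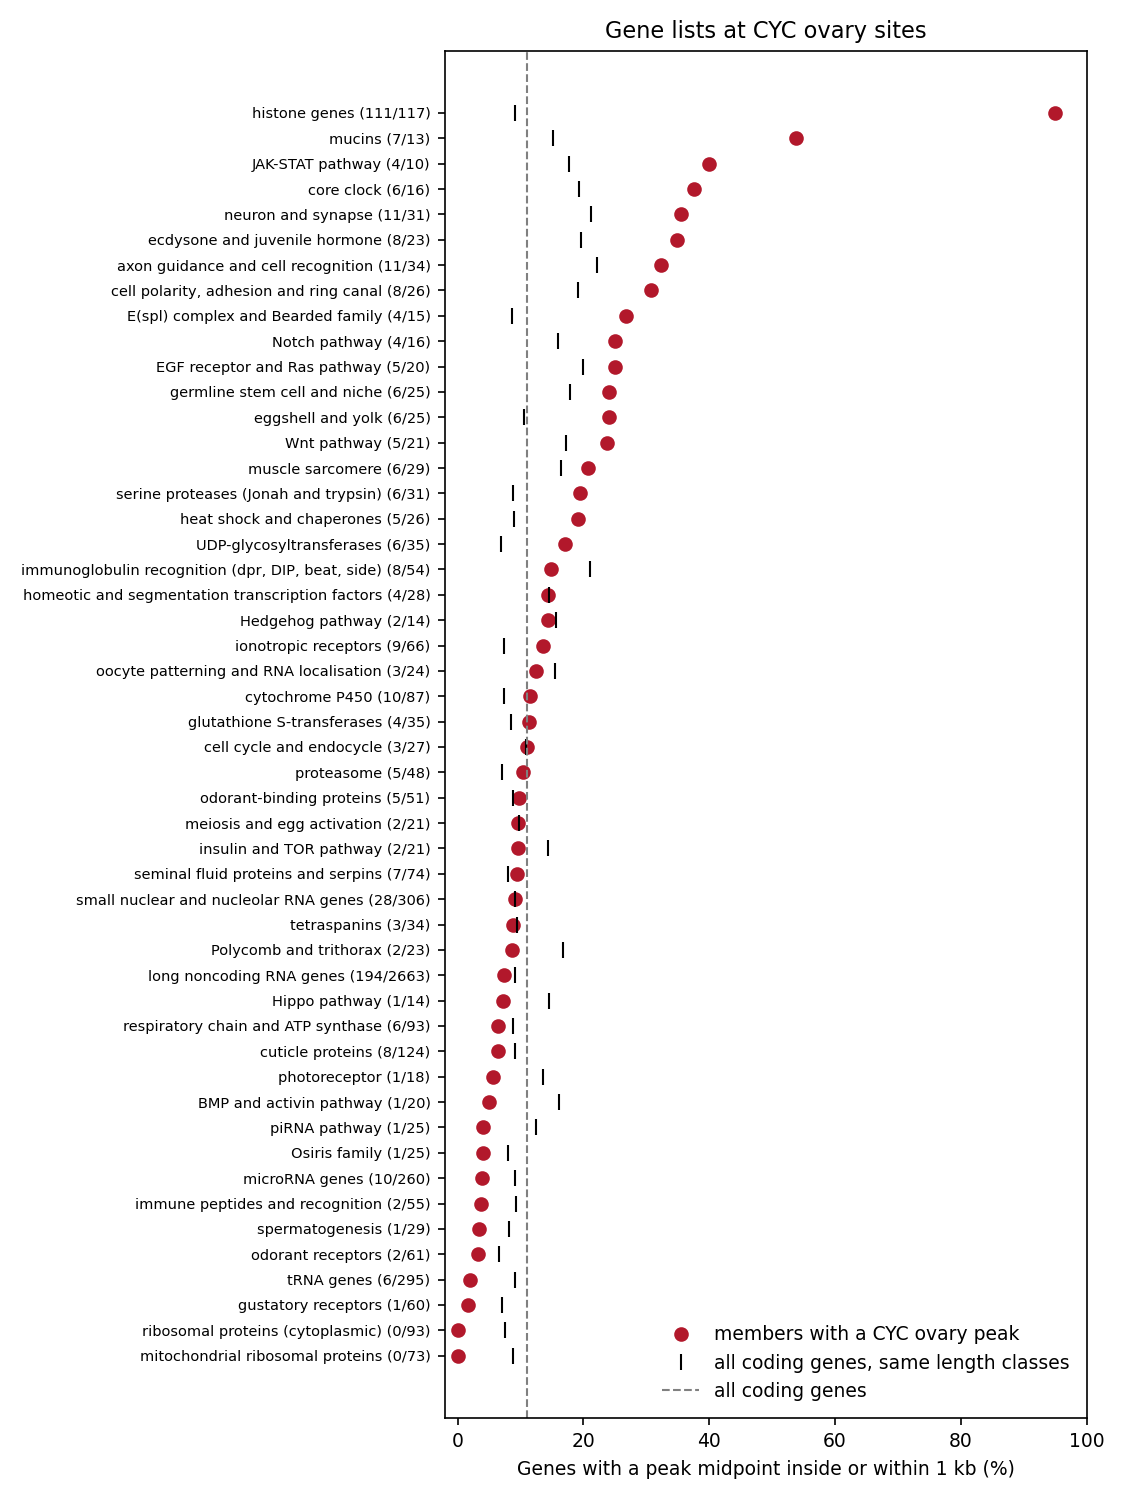
Percent of the members of each of 50 gene lists with a CYC ovary peak midpoint inside the gene or within 1 kb of an end (red points, with the count and list size in the label), beside coding genes with the same mix of length classes (black ticks) and all coding genes (dashed line at 11.1%). The histone genes stand at the top with 111 of 117, and both ribosomal protein lists are at 0.

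Against protein-coding genes, 796 of 1936 midpoints lay within 1 kb of a gene end (41.1%, 95% exact interval 38.9 to 43.3%), in a zone that holds 24.6% of bases. A further 693 lay deeper inside genes (35.8%, for 49.3% of bases) and 447 farther outside (23.1%, for 26.1% of bases). Without the histone gene cluster these shares were 37.6, 38 and 24.4%. Of the 796 sites near an end, 514 had the midpoint inside a gene and 282 outside. Ends of more than 1 gene lay within 1 kb for 322 sites (2 genes) and 86 sites (3 or more), the latter falling to 33 outside the histone cluster. Sites deeper inside genes had a median distance of 2746 bp to the nearest end. Sites outside had a median of 2991 bp, and 40 of them were over 50 kb away. The annotated ribosomal DNA of X gave 25 of these 40, with ATbp as the nearest coding gene. The annotation used gives no strand, so start and end of a gene cannot be told apart here.

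CYC of testis had 40.8% of its sites near a gene end (38.3 to 43.3%), and the difference of 0.329 points from ovary did not pass (Fisher's exact test, two-sided, adjusted p = 0.862). This value turned with the setting, as it was -2.77 points in the widest 50% of peaks and -1.54 without the histone cluster, neither of which passed, and it was 6.88 points at 500 bp (Fisher's exact test, adjusted p = 7.2e-06) and -6.26 points at 3 kb (adjusted p = 4.2e-05). The ovary share of CYC was 10.7 points above that of CLK (Fisher's exact test, adjusted p = 0.000356), a call lost among the widest 50% of peaks and with all RefSeq genes. The difference from CYC of head, where 70.8% of sites were near an end, was -29.7 points (Fisher's exact test, adjusted p = 1.46e-26). Conversely the sites outside genes made up 23.1% in ovary and 3.55% in head (19.5 points, Fisher's exact test, adjusted p = 1.35e-23). Those inside genes took 35.8% in ovary and 25.6% in head (Fisher's exact test, a difference of 10.2 points with adjusted p = 0.000182). At 3 kb that difference was 3.32 points and did not pass (Fisher's exact test, adjusted p = 0.118). Peaks are the units of these tests, and the p-values hold no error between replicates.

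**Figure D2:**
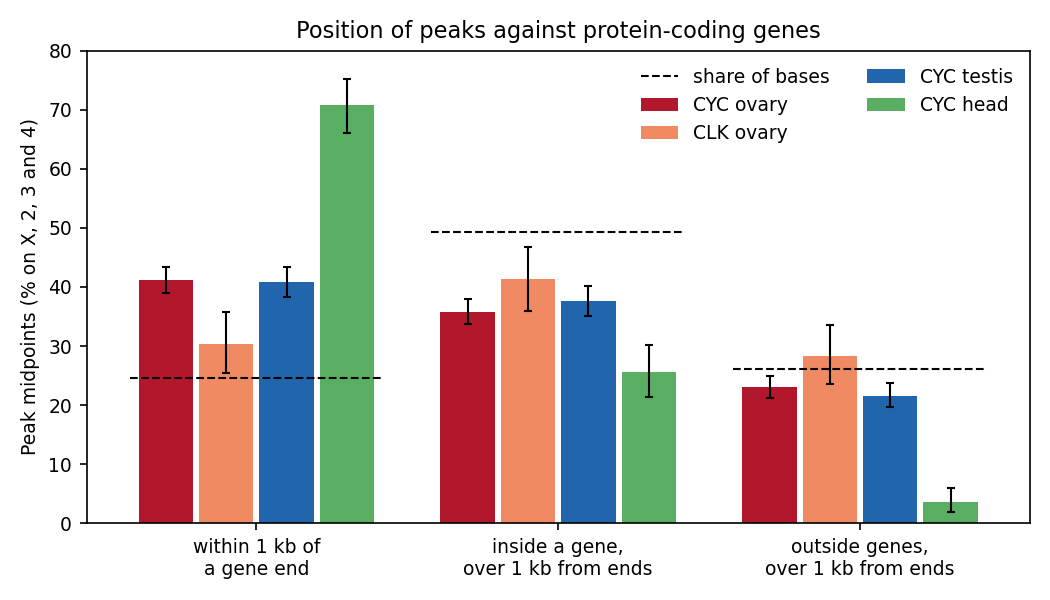
Percent of peak midpoints on X, 2, 3 and 4 in each position class for 4 lists, with 95% exact intervals, and the share of bases in each class (dashed lines). CYC in ovary has 41.1% near gene ends, close to CYC in testis at 40.8% and below CYC in head at 70.8%.

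The small chromosome 4 stood out by density, with 78 sites at 61.3 per Mb, where the other arms had 11.3 to 17.2 per Mb. Of its 80 coding genes 35 had a site (43.8%, against 8.14 to 13.5% on the other arms). Genes are long there, with a median of 10.1 kb against 1.99 to 2.52 kb, and coding genes of like length had a site in 18.7% of cases. Within the longest class, 32 of 62 genes of chromosome 4 had a site (51.6%), against 738 of 3419 on the other arms (21.6%). Among these were unc-13, a gene of synaptic vesicle priming, with 7 peaks, the transcription factor gene Mitf and CG31999 with 4 each, and the zinc finger gene dati with 3. The PAX6 genes ey and toy had 2 and 1, and the titin-like gene bt had 1. All peaks at these genes were narrow, the widest being 710 bp at PlexB (4 32366 to 33076). Chromosome 4 took 4.03% of sites, against 0.393% for CYC of testis (Fisher's exact test, a difference of 3.64 points with adjusted p = 9.84e-14) and 0.508% for CYC of head (3.52 points, adjusted p = 0.000144). CLK of ovary had 7 of 332 there (2.11%), and the difference of 1.92 points did not pass (Fisher's exact test, adjusted p = 0.116). This chromosome and peak width were picked for testing after their values were seen, in a family of 6 tests.

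The X chromosome held 406 sites (21%), 15.8% of coding genes and 17.6% of bases. CYC in testis had 3.67% of its sites there, 17.3 points fewer (Fisher's exact test with adjusted p = 2.48e-55). CYC in head had 10.4%, which was 10.6 points fewer (Fisher's exact test with adjusted p = 1.1e-06). CLK of ovary had more of its sites there, at 107 of 332 (32.2%), so that CYC of ovary was 11.3 points lower (Fisher's exact test, adjusted p = 3.21e-05). Arrays of nearly identical copies are part of these X counts. The annotated ribosomal DNA of X held 25 of the 406 CYC ovary sites and the Sdic array 22. The array of CG45488 to CG45493 held 14 and the Stellate array 5. In the ribosomal DNA lay 14 of the 107 CLK ovary sites on X and 18 of the 56 of CYC of testis. Shares of X without these arrays were not calculated. Females have 2 X chromosomes and males 1, so tissue and X dose cannot be told apart between ovary and testis. Arm 2L had 383 sites, of which 112 were in the histone cluster, and its density fell from 16.4 to 11.6 per Mb without them. Outside the histone cluster, the 3 Mb next to the centromere of each large arm held 9.47 sites per Mb, against 13.7 over the rest. The ratio of these densities was 0.692, and it was 0.365 for CYC of testis, 1.26 for CLK of ovary and 0.142 for CYC of head. The annotated ribosomal DNA of X was kept in these zones. It held 25 of the 142 CYC ovary sites there, 18 of 66 for CYC of testis and 14 of 44 for CLK of ovary. The ratios without it were not calculated.

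**Figure D3:**
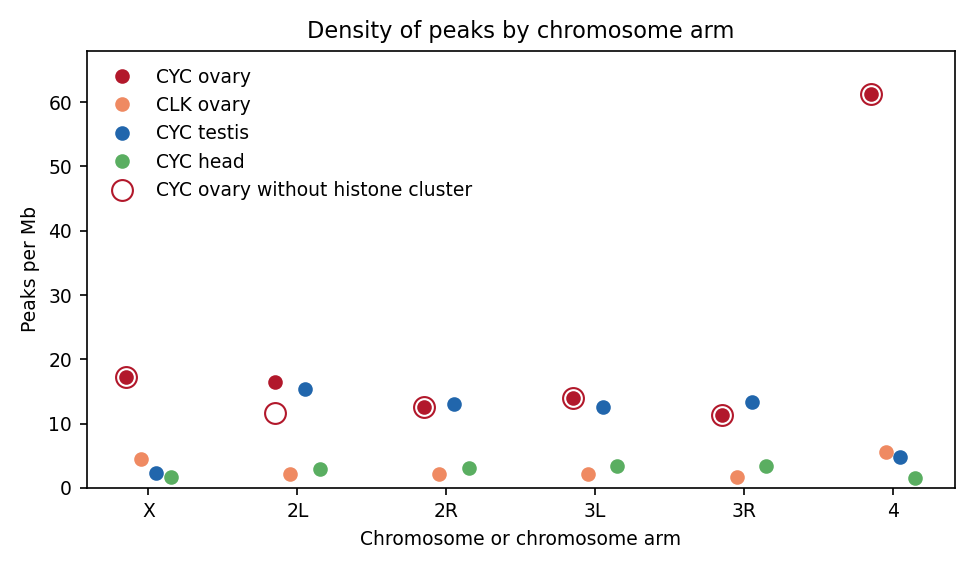
Peaks per Mb on each chromosome arm for 4 lists, with open circles for CYC in ovary without the histone gene cluster. CYC in ovary reaches 61.3 per Mb on chromosome 4, and on X it has 17.2 per Mb against 2.38 for CYC in testis.

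Peaks of 1 kb or more made up a larger share of the CYC ovary list than of the other 3 lists. The median width was 312 bp, with an interquartile range of 245 to 489 bp, and 210 peaks spanned 1 kb or more, 86 spanned 2 kb or more and 33 spanned 4 kb or more. On the 6 chromosome arms 10.3% were 1 kb or wider, against 0.459% for CYC of testis (Fisher's exact test, a difference of 9.82 points with adjusted p = 5.32e-42), 0.508% for CYC of head (9.77 points, adjusted p = 4.8e-14) and 5.42% for CLK of ovary (4.86 points, adjusted p = 0.0054). Read depth and the settings of peak calling can move widths; the labels state neither, and their part was not tested.

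**Figure D4:**
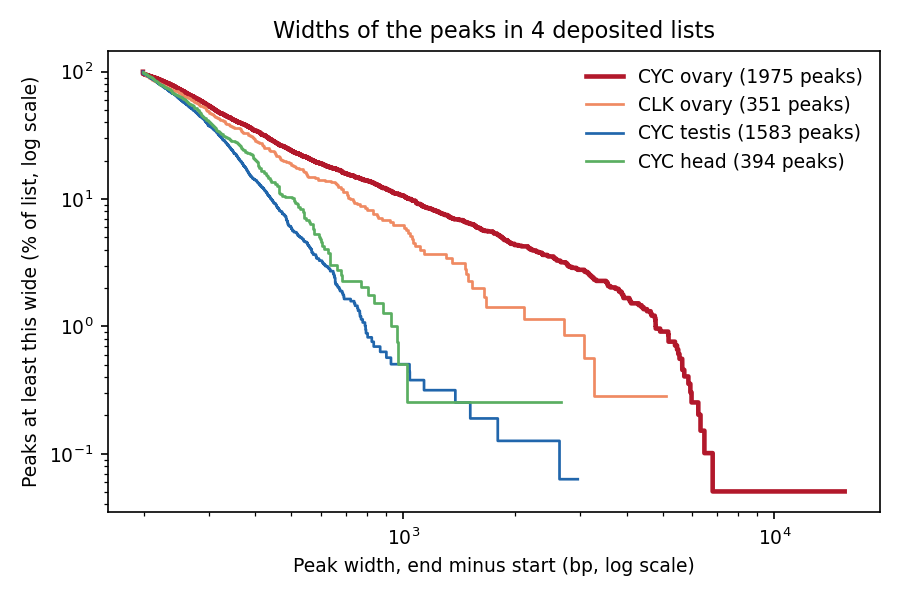
Percent of peaks at least as wide as the value on the x axis (bp), for 4 lists, with both axes on log scales. The line for CYC in ovary stays above the others beyond about 1 kb, with 10.6% of all its peaks at 1 kb or wider.

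The widest nuclear peak outside the histone cluster spanned 6818 bp inside alpha4GT2, a glycosyltransferase gene (3R 25834842 to 25841660). Next came Mid1 (2R 24728851 to 24735328, 6477 bp), bs, the fly serum response factor gene (2R 24354074 to 24360397, 6323 bp), CG13954 (6237 bp) and hbs (5981 bp, given above). Inside CG33267 and CG3777 lay peaks of 5865 and 5550 bp, and inside fne, an ELAV-family gene, one of 5466 bp. Pc, the founding gene of the Polycomb group, held 1 of 5397 bp (3L 21306796 to 21312193) and another of 1080 bp. The rest of the widest 15 lay outside protein-coding genes, with the nearest end that of spir (5937 bp), CG4988 (5717 bp), bru3 (5647 bp), the translation initiation factor gene eIF3g1 (5644 bp), CG12680 (5508 bp, inside lncRNA:CR44833) and l(2)gl (4922 bp). The last began at position 63 of 2L, the tip of the arm as assembled. Of these 15 peaks, those near spir and eIF3g1 met a CYC testis peak and that near l(2)gl met a CLK ovary peak.

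Few wide sites lay at gene ends. Under 1 kb, 771 of 1737 sites lay near a gene end (44.4%, 42 to 46.8%), but from 1 kb upwards 25 of 199 did (12.6%, 8.3 to 18%), and from 2 kb upwards 2 of 79. The class was set by the midpoint alone, and the part of peak length in this was not tested. Sites of 1 kb or more lay outside protein-coding genes in 39.7% of cases, against 21.2% of narrower ones. Another CYC ovary peak lay within 1 kb for 67% of peaks of 1 to 2 kb and 64.9% of those of 2 kb or more, against 28.3% of narrower peaks outside the histone cluster. These shares are a description of 1 list, and no test was made.

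**Figure D5:**
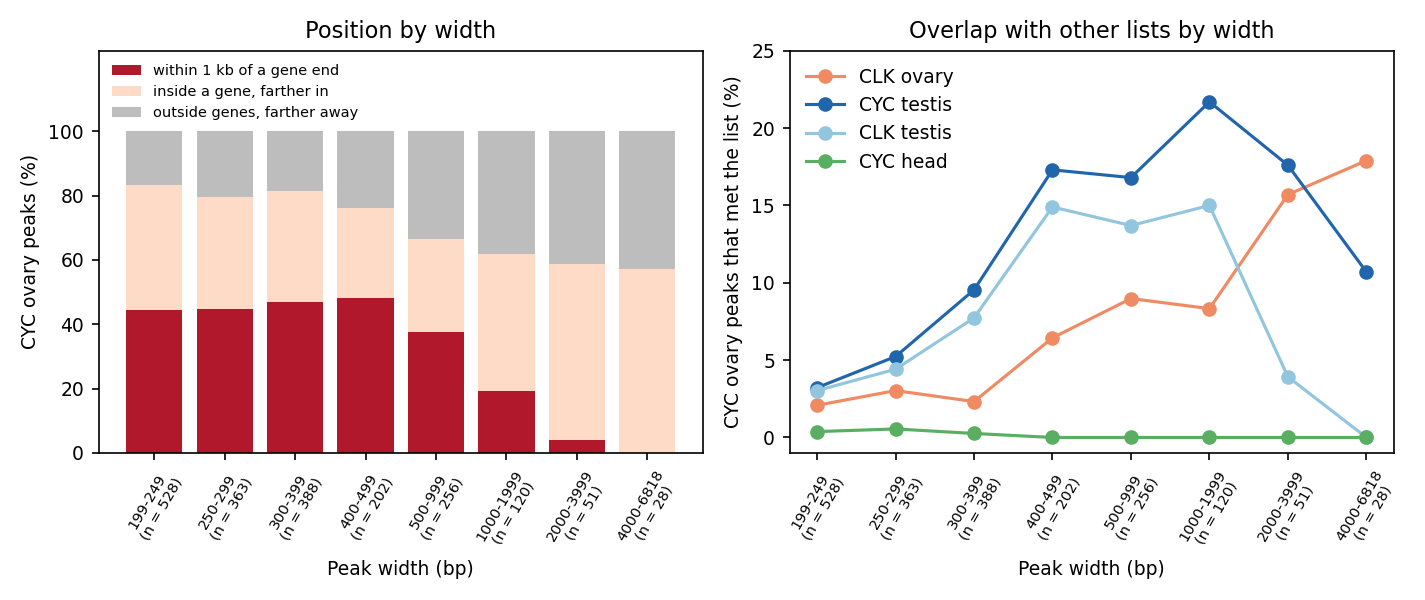
CYC ovary sites by width class (bp). The left panel gives the percent in each position class, where the share near gene ends goes from 44.3% in the narrowest class to 0 of 28 in the widest, and the right panel gives the percent that met a peak of 4 other lists.

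Many sites came in groups. With gaps of up to 5 kb joined, the 1936 sites formed 1249 groups, of which 938 were single peaks and 32 had 5 peaks or more, holding 352 peaks together. The largest was the histone gene cluster, with 112 peaks by midpoint from 213 to 2950 bp wide (2L 21416399 to 21541974), 5.67% of the list. Its peaks overlapped every annotated copy of His1 (23), His2A (20) and His2B (23), 22 of 23 copies of His3 and 21 of 22 of His4. CLK of ovary had 7 peaks there and CYC of testis 41, while CLK of testis had 89, and 80 of the 112 peaks met one of these. The next largest was the 5S ribosomal RNA array on 2R, with 29 peaks over 36.4 kb at 90 of its 96 genes. CYC of testis had 2 peaks in the array, CLK of testis 5 and the other lists 0. The Sdic array on X, copies of a sperm dynein gene, had 22 peaks at all 7 genes (X 20177186 to 20220175), and of the other lists CYC of testis alone had a peak, 1. The array of CG45488 to CG45493 on X had 14 peaks at its 6 genes and the Stellate array 5 peaks at 9 of 12 genes. The annotated ribosomal DNA of X had 25, where CLK of ovary had 14 and CYC and CLK of testis 18 each. Copies in these arrays are nearly identical, so their reads cannot be placed among copies with certainty, and the arrays were looked up after the groups were seen.

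Among single genes, CG17574 held the most peaks, 11 over 16.7 kb (2R 12851105 to 12867830), of which 3 met a CYC testis peak and 1 a CLK ovary peak. CG42784 and CG33223 held 8 each and unc-13 held 7. The annotated span of CG33223 holds the chorion cluster of X, and its 8 peaks are those of the chorion group given above. Next, with 6 each, were RYa-R, a neuropeptide receptor gene, CG32816, CG43291, Prm and heph, the gene of the polypyrimidine tract-binding protein. Snoo, a SMAD corepressor gene, was among those with 5. RYa-R and Snoo also held wide peaks, of 4440 and 3922 bp, whereas the 6 peaks of heph were all 222 to 411 bp wide.

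No peak of the other 5 lists overlapped 1616 of the 1975 (81.8%), 258 met 1 list, 81 met 2, 19 met 3 and 1 met 4. CLK of ovary met 101 of the 1975 (5.11%), which involved 110 of its own 351 peaks (31.3%). CYC of testis met 202 (10.2%), through 211 of its 1583 peaks (13.3%), and CLK of testis 169 (8.56%), through 174 of 2491 (6.99%). Outside the histone cluster and on the 6 arms, the shares of 1824 CYC ovary sites were 4.61, 8.33 and 3.67%. CYC of testis met 3.22% of the sites under 250 bp and 21.7% of those of 1 to 2 kb, and the share was 17.6% at 2 to 4 kb and 10.7% for the 28 widest. CLK of ovary met 2.08% of the narrowest class and 17.9% of the 28 widest. The part of peak length in these overlaps was not tested.

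The widest sites that met CLK of ovary were, besides that near l(2)gl, in Papss, the gene for the enzyme that makes the sulphate donor (3L 19848680 to 19853464, 4784 bp), in mwh, a planar polarity gene (3L 1222010 to 1226790, 4780 bp), in B4 (4537 bp) and in CG5953 (4111 bp). CG14636, su(w[a]), CG42249 and CG7900 held others, of 3251 to 3887 bp, and CG32548 had one outside its end. Those widest among the sites that met CYC of testis included, beyond spir, eIF3g1, Papss and CG42249, peaks in the phospholipase gene Plc21C (2L 350739 to 354541, 3802 bp), CG43163 and CG10947, and peaks nearest to corto, sbb and PRAS40. In all, 32 sites met both CLK of ovary and CYC of testis, of which 23 were on the 6 arms outside the histone gene cluster. For 10 of the 23 the nearest coding gene was ATbp on X, and 9 of these lay in the annotated ribosomal DNA. The others included sites in Papss, CG42249, CG17574, baz, ome, bma, Muc26B, Muc30E and sites nearest to Cph, Best4 and Nipped-B.

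Few sites were shared with head. CYC of head met 5 of the 1975 (0.253%), through 5 of its own 394 peaks (1.27%), and CLK of head 4. They lay in per, in cmet, a kinetochore motor gene (2L 11268199 to 11268441), in the ribosome biogenesis factor gene eIF6 (2R 23850201 to 23850402, 201 bp, at the end of the gene), in CG44774 (X 4931534 to 4931788), which met CLK of ovary as well, and in w. The site in w, the eye pigment transporter gene, met 4 lists, those of both proteins in head and testis (X 2792905 to 2793157). It also lies within the annotated span of kirre, whose count in the axon guidance list rests on this peak alone. Many fly constructs carry a copy of w, the labels name no genotype, and a part of construct sequence in this peak was not tested. CAP and CG1764 held the remaining sites met by CLK of head.

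At the level of genes, CYC of ovary shared 326 coding genes with CYC of testis. These were 21% of the 1551 of ovary, against 10.1% of all coding genes, and 23.1% of the 1413 of testis, against 11.1%. Without histone genes this was 252, or 17.5 and 18.8%. With CLK of ovary it shared 109, or 7.03% of its own (against 1.73%) and 45.2% of the 241 genes of CLK (against 11.1%). Without histone genes it shared 94. With CYC of head it shared 85, which were 5.48% of its own (against 4.13%) and 14.8% of the 575 of head (against 11.1%). With CLK of testis, which had sites at 2481 genes (17.8% of coding genes), it shared 422, and with CLK of head, at 1263 genes (9.07%), it shared 210. A gene counted as shared could have its sites at different places.

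Among genes that do not code for protein, 388 of 3762 had a site (10.3%), led by ribosomal RNA genes (92 of 98) and their pseudogenes (17 of 18). Most of these lie in the 5S array, where 29 peaks counted for 90 of 96 genes. Its reads cannot be placed among copies with certainty. The noncoding share without ribosomal RNA genes was not calculated. Long noncoding RNA genes had 113 of 1959 (5.77%) and small nucleolar RNA genes 24 of 269 (8.92%). Of the 54 genes annotated as ncRNA, among them the sncRNA:430 copies of the histone cluster, 21 had a site.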

How the data were processed

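Per the labels' protocols, tissue was fixed in 1% formaldehyde for 10 min, chromatin was sheared to 100 to 500 bp, 5% was kept as input and an anti-GFP antibody was used. Per the submitters' processing notes, reads were handled on dm6 with tools that included MACS2, ChIPseeker, SAMtools, deepTools, Picard, Bowtie2 and fastp. Versions, settings, peak threshold and how replicates were joined are not given in the sources used here. In the deposited lists each line holds chromosome, start and end with no header, so their other values were positions only; the narrowest peak spans 199 bp in every list, and starts may be counted from 0 or 1. The depth of reads is unknown. Confidence intervals (95%, exact, Clopper-Pearson) reflect only how many peaks were counted.

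Midpoints were set against the NCBI RefSeq gene table for Release 6 plus ISO1 MT (the assembly that UCSC calls dm6), with a window of 1 kb at either gene end. Of the list symbols, 11 were matched through synonyms and 9 had no match and were not analysed here. Overlap meant at least 1 bp. Shares were compared with Fisher's exact test, two-sided, with Benjamini-Hochberg adjustment over 12 planned tests and over 6 added tests, at a threshold of 0.05. Python 3.11.15 with pandas 2.3.3, numpy 2.4.6, scipy 1.17.1 and matplotlib 3.10.9 was used, and the steps were tested on simulated data. No sequence was used, so the planned description of E-box letters was not run.

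The members and lists were chosen with earlier results of these data known. Named genes were those at the 15 widest peaks, the 10 genes with most peaks, all core clock genes with a site, up to 10 genes each at the widest peaks that met CLK of ovary or CYC of testis outside the histone cluster, all sites that met CYC of head and up to 8 members per list. Genes of chromosome 4, the tandem arrays and the sites that met CLK of head were chosen after their values were seen. The list of seminal fluid proteins and serpins was corrected after the data were seen. Of its members, 7 of 74 had a site (9.46%, against 8.05% at like length). Alternatives were windows of 500 bp and 3 kb, the widest 50% of peaks, all RefSeq genes, stricter overlap, merged peaks, other gene assignment and removal of the histone cluster, contigs and mitochondrial genome.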

Additional observations from a re-analysis of the deposited data

Results flagged for a closer look

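Several differences between tissues under the same protein passed a test of the difference itself, and none of them has replicate error behind it. For CYC of ovary minus CYC of head, the share of sites near a gene end was -29.7 points, that inside genes 10.2 points and that outside genes 19.5 points. The share of sites on X was 17.3 points higher in ovary than in testis for CYC and 10.6 points higher than in head. Peaks of 1 kb or wider made up 9.82 points more of the CYC ovary list than of the CYC testis list, and 9.77 points more than of the CYC head list. Sites on chromosome 4 made up 3.64 points more than in testis and 3.52 points more than in head. Peak width and chromosome 4 were picked for testing after their values were seen, so passing these tests is no independent evidence.

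Outside the 6 chromosome arms, 16 CYC ovary peaks lay on Y, which the fly ovary does not carry. They were 202 to 816 bp wide, 4 of them had a Su(Ste) repeat as the nearest gene and 1 lay inside kl-5, a dynein gene needed for sperm. The CLK ovary list had 0 peaks on Y and the CYC testis list 39. Placement of reads from repeats shared with other chromosomes was not tested. A further 21 peaks lay on unplaced contigs, 17 of them on 1 contig and up to 5186 bp wide. The widest of the 2 mitochondrial peaks spanned 15460 bp.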

How the results depend on the processing

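Over the alternatives, 50 of 66 values of the 18 tested differences kept their direction and side of the threshold, and 6 changed sign. Against CYC of testis, the share near gene ends was 6.88 points at 500 bp and -6.26 at 3 kb, both past the threshold, and -2.77 in the widest 50% and -1.54 with the histone cluster, contigs and mitochondrial genome removed, neither past it; that inside genes was -9.94 at 500 bp, 4.67 at 3 kb and -5.35 in the widest 50%, all past it. The share outside genes against CYC of testis was 8.12 points in the widest 50%. Against CLK of ovary, the share near ends no longer passed in the widest 50% (6.36 points) and with all RefSeq genes (4.06); that inside genes passed at 3 kb (-5.98) and in the widest 50% (-10), and that outside at 3 kb (-4.3), while that outside was 3.67 in the widest 50% and 1.85 with all RefSeq genes, neither past it. Against CYC of head, the share inside genes at 3 kb was 3.32 points and did not pass. With reciprocal overlap of 50%, the shares of sites met were 2.58% for CLK of ovary, 4.96% for CYC of testis, 4.71% for CLK of testis and 0% for CLK of head. With midpoints within 200 bp the first 3 were 3.19, 6.48 and 5.57%, and with histone cluster, contigs and mitochondrial genome removed CYC of testis met 8.48% and CLK of testis 3.86%. Coding genes with a site numbered 2377 with a window of 3 kb and 709 for the widest 50%, against 1551. In the gene lists, 109 of 250 counts moved by more than 1.5 times. The widest 50% and the removal of the cluster use fewer peaks, and the cause of the changes was not tested under any alternative. No paired analysis was possible because each list combines its libraries, and for the same reason no replicate could be left out. Depth and peak scores were not given, so weak sites could not be told from strong ones.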
